A study of Mus musculus with 49 samples.

Results

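Of 49 cells in the series, 13 held RNA of at least 2 of 5 astrocyte genes at 10 RPM or more. RPM, the unit of the deposited table, gives the reads of a gene relative to all reads of its cell. The cells were chosen by these measured values of Aqp4, Slc1a3, Gja1, Aldoc and Mfge8, so the levels of the 5 genes describe the choice and are no result. The 13 cells are called marker-positive below, 16 cells with none of the genes at 10 RPM are called marker-negative, and 20 cells with exactly 1 are called single-marker. Marker-positive cells made up 26.5% of the series (95% Clopper-Pearson interval 14.9% to 41.1%, counting error only).

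All 49 cells came from wild-type CD1 mice, were labelled with FlashTag at E13.5 in the embryo and were collected at postnatal day 7. FlashTag is a fluorescent dye that enters cells dividing at the ventricle and then stays with their progeny. Single cells of the somatosensory cortex were recorded in slices, their content was drawn into the patch pipette, and the RNA was sequenced (Patch-seq), with the cells spread over 5 library pools. GEO describes every sample as neurons, and there is no untreated or control arm.

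Astrocytes are the glial cells that take up glutamate and potassium around synapses, store glycogen, secrete lipoproteins and matrix proteins, and contact blood vessels with their endfeet. In the mouse cortex they arise from the same radial glia that make neurons first, and in the first postnatal week they divide and mature in place, so their transcripts still overlap with those of radial glia. Their fine processes wrap neuronal cell bodies and synapses.

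The 5 marker genes have separate roles. Aqp4 encodes the water channel of astrocyte endfeet, Slc1a3 the glutamate transporter GLAST, and Gja1 the gap junction protein connexin 43. Aldoc encodes the brain form of the glycolytic enzyme aldolase, and Mfge8 a secreted protein that bridges phosphatidylserine on dying cells to phagocytes. In the GRCm38 assembly with the GENCODE M21 annotation, Slc1a3 lies on the minus strand at chr15:8634124-8710764, Gja1 on the plus strand at chr10:56377330-56402513, Aldoc on the plus strand at chr11:78322968-78327781 and Mfge8 on the minus strand at chr7:79133768-79149060. All are protein-coding, and Slc1a3 alone among these 4 overlaps another annotated gene, which the deposited table does not list.

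Aldoc was the most widely found of the markers. It reached 10 RPM in 25 of 49 cells, 12 of them marker-positive and 13 single-marker, and its RPM over the marker-positive cells ran from 7.74 through a median of 129 to 828. Slc1a3 reached the limit in 13 cells, 8 of them marker-positive, with 0, 25.9 and 1121 RPM as the lowest, median and highest value there. The remaining markers were more restricted.

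Mfge8 reached 10 RPM in 11 cells, 9 of them marker-positive, with a median of 37.2 and a highest value of 699 RPM. Aqp4 did so in 6 cells and Gja1 in 4, and all of these were marker-positive. The median marker-positive cell therefore held 0.963 RPM of Aqp4 and 0 RPM of Gja1, and the group rests mainly on Aldoc, Mfge8 and Slc1a3. Single-marker cells could hold as much of their marker, up to 848 RPM of Aldoc and 667 RPM of Slc1a3, whereas the rule keeps every marker under 10 RPM in the marker-negative cells.

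**Figure D1:**
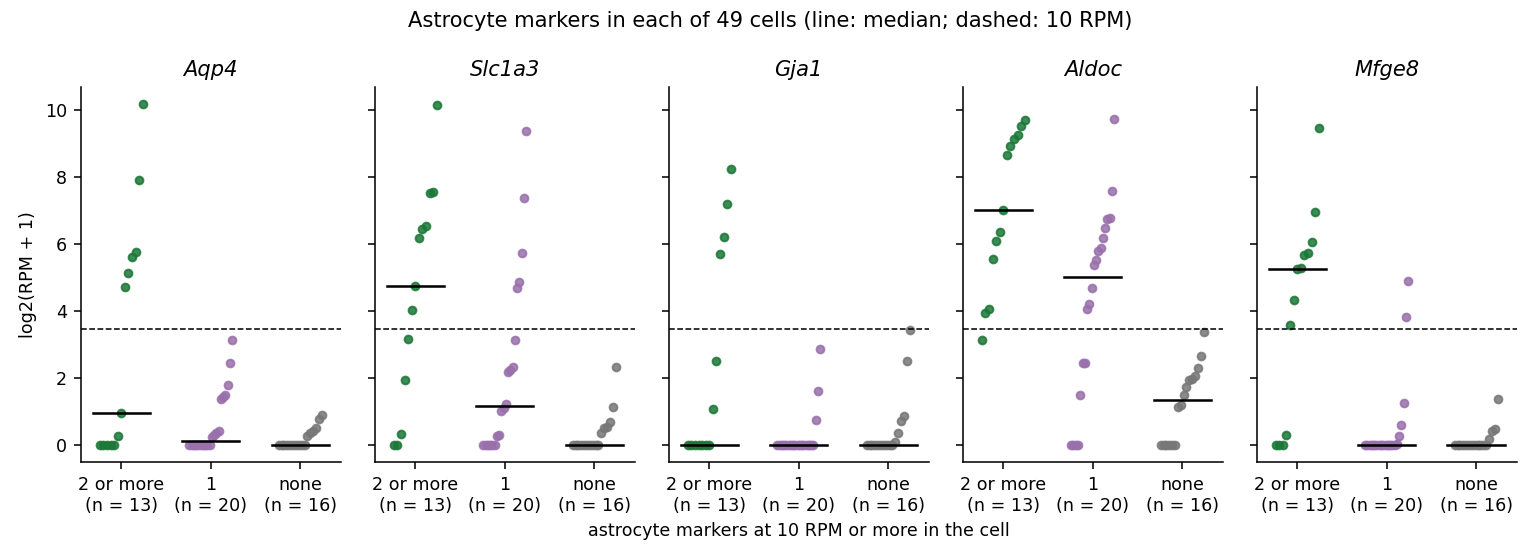
Level of each of the 5 marker genes, as log2(RPM + 1), in 13 cells with at least 2 markers, 20 with 1 and 16 with none. Each point is a cell, the line is the median and the dashed line is 10 RPM; Aldoc reached the limit in 25 cells and Gja1 in 4.

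The 13 cells were not alike. They are named here by their IL number and library pool, as in the labels. A pair of markers was found in 5 of them, 3 markers in 5, 4 in 1 and all 5 in 2. Cell IL9 of pool 1 held all 5, with 1149 RPM of Aqp4, 25.9 of Slc1a3, 51 of Gja1, 607 of Aldoc and 699 of Mfge8. Cell IL3 of pool 2 also held all 5, at 34.1, 186, 72.6, 404 and 38.1 RPM in the same order. These 2 cells differed in the number of other astrocyte genes, with 13 of 38 other astrocyte genes at 10 RPM in the first and 35 of 38 in the second.

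Cell IL5 of pool 2 held 4 markers, among them 1121 RPM of Slc1a3 and 300 RPM of Gja1, the highest values of both in the series. At the other end stood cell IL7 of pool 2, which qualified with 15.5 RPM of Slc1a3 and 49.8 RPM of Mfge8, and cell IL4 of pool 5, which qualified with 15.7 RPM of Aldoc and 123 RPM of Mfge8. The nearest cells outside were close: cell IL2 of pool 1 had Aqp4 as its second marker at 7.75 RPM, which is 2 reads, and cell IL6 of pool 2 had Gja1 at 6.38 RPM. Among marker-negative cells, IL1 of pool 3 came nearest, with 9.91 RPM of Gja1, or 5 reads.

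Each of the 5 pools held marker-positive cells, namely 3, 4, 3, 1 and 2 in pools 1 to 5. Marker-negative cells numbered 3, 2, 2, 5 and 4 in the same order. In 4 marker-positive cells, none of the 5 genes had more reads in the cell than in all other cells of its pool together, in 4 cells 1 gene did, and in 5 cells 2 or more did. In IL3 of pool 2 all 5 did, but that cell held 46.8% of the reads of its pool. IL5 of pool 2, with higher RPM of Slc1a3, Gja1 and Aldoc, held 2.76% and had 0 such genes. Cell IL9 of pool 1 held 0.947% of its pool's reads and had 2 such genes, Aqp4 and Gja1. The part of depth in this count was not tested.

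Sequencing depth and the mitochondrial share overlapped in range between the groups, but the medians of both were displaced. Marker-positive cells had 632018 to 19533497 reads with a median of 967537, and marker-negative cells had 254182 to 14416592 with a median of 1904797. Genes with at least 1 read numbered 5295 to 8532 (median 6156) against 3302 to 8161 (median 6829.5). Mitochondrial genes took 0.291% to 9.81% of reads in marker-positive cells, median 1.91%, and 0.249% to 1.84%, median 0.819%, in marker-negative cells. Over the 49 cells the number of markers had a Pearson correlation of 0.03 with log10 reads and of 0.47 with the mitochondrial share, where all values of a cell share its library. The part of the mitochondrial share in what follows was not tested.

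All other genes were then compared between the 13 marker-positive and 16 marker-negative cells as the difference of mean log2(RPM + 1), and a gene was called at a difference of 1 (2-fold on this scale) or more. The cells came from several independent experiments, but the labels name neither an experiment nor an animal for a cell. All cells are therefore treated as 1 sample, and the differences are given without p-values. Of the 9020 genes, 1342 (14.9%) were called higher and 1282 (14.2%) lower, and the median difference was 0.00. With the reads of each cell thinned to 1 depth, 1113 were higher and 1872 lower. These shares are the level that each gene list is read against.

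Other astrocyte genes were higher in the marker-positive cells as a list, but not every one, and not in every pool. Of 38 astrocyte genes outside the rule that the table holds, 25 were called higher and 1 lower, with a median difference of 1.38 beside the 0.00 of all genes. The list splits by function into transport and metabolism (9 of 15 called higher, median 1.38), secreted and surface proteins (9 of 11, median 1.78), and transcription factors and cytosolic proteins (7 of 12 higher and 1 lower, median 1.11). Differences over the 38 genes ran from -1.32 to 3.17.

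The table itself bears on these counts. It holds genes with at least 100 RPM in 2 cells, and 15 of the 38 astrocyte genes meet that only with the marker-positive cells included, as do 1075 of all 9020 genes. This floor favours a higher level there, also in each comparison of marker-positive cells below that uses the 38 genes. The 15 include Kcnj10, Slc4a4, Hepacam, Htra1, Bcan, Sox9 and Atp1b2. Of the other 23 astrocyte genes, 12 were higher and 1 lower with a median of 1.0, beside 12.7% higher, 16% lower and a median of -0.11 over the 7945 remaining genes.

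Among transport and metabolic genes, Atp1b2, a beta subunit of the sodium pump found in astrocytes, differed by 2.24. Its lowest, median and highest values were 0, 36.1 and 253 RPM in marker-positive cells and 0, 1.96 and 52.5 RPM in marker-negative cells. The groups overlapped, with 8 of 13 against 4 of 16 cells at 10 RPM.

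Glul, the glutamine synthetase that turns glutamate into glutamine, differed by 2.07, with a median of 37.3 RPM against 4.75. Kcnj10, the inward rectifier potassium channel of astrocytes, was found in few cells. It reached 10 RPM in 3 marker-positive cells, with 311 RPM in IL9 of pool 1, 179 in IL2 of pool 2 and 65.6 in IL3 of pool 2. Kcnj10 did not exceed 75.4 RPM in any single-marker or 0.0722 RPM in any marker-negative cell, and is in the table through the marker-positive cells alone. Hepacam, a cell adhesion protein of astrocytes, likewise reached the limit in 4 marker-positive cells and in no marker-negative cell, where its highest value was 4.71 RPM. It also did so in 1 single-marker cell, with 260 RPM, beside a highest marker-positive value of 337 RPM.

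Several familiar astrocyte genes of this class were not higher. Slc1a2, the glutamate transporter GLT-1, had medians of 101 and 118 RPM and a difference of -0.03. Prdx6, an antioxidant enzyme, differed by 0.01, and Acsbg1, an acyl-CoA synthetase of brain, by -0.16. Aldh1l1, the folate enzyme often used to label astrocytes, reached 10 RPM in 2 cells of either group and differed by 0.62, short of the 2-fold limit. Gfap, Slc7a10, Gjb6, Fgfr3 and 10 further listed astrocyte genes are not in the table, with its floor of 100 RPM in 2 cells, so the defining intermediate filament of astrocytes was not analysed here.

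Apoe led the secreted proteins. This apolipoprotein, the main lipid carrier made by astrocytes and also by microglia, ran from 5.83 through 532 to 3378 RPM in marker-positive cells and from 0 through 40.8 to 1681 RPM in marker-negative cells. Its mean log2(RPM + 1) was 8.34 ± 2.75 (SD, n = 13 cells) against 5.24 ± 3.18 (SD, n = 16 cells), a difference of 3.10. Ptprz1, a receptor phosphatase of glial progenitors and astrocytes, had medians of 228 and 1.98 RPM and differed by 3.06, with 9 of 13 against 4 of 16 cells at 10 RPM. Bcan, which encodes the matrix proteoglycan brevican, and Ednrb, the endothelin receptor of astrocytes, differed by 2.54 and 2.53.

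Bcan and Ednrb rested on few cells. Bcan reached 1858 RPM in IL2 of pool 2, 157 in IL3 of pool 1 and 142 in IL3 of pool 2, and Ednrb reached 2274 RPM in the first of these. Single-marker cells held up to 201 RPM of Bcan and up to 10148 RPM of Ednrb, above the highest marker-positive value of Ednrb. Clu, the secreted chaperone clusterin, was broader, at 10 RPM in 12 of 13 against 9 of 16 cells, and differed by 1.78. The 2 genes of the list that were not called were Ncan, the proteoglycan neurocan, with a difference of -0.26, and Sparc, a secreted matrix protein, with 0.86 (-1.22 as the mean within pools).

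In the nucleus and cytosol, Sox9, the transcription factor that gliogenesis requires, differed by 2.67. It was at 10 RPM in 6 of 13 marker-positive cells and in 1 of 16 marker-negative cells. The highest marker-positive values were 429 RPM in IL4 of pool 5 and 213 RPM in IL5 of pool 2, and single-marker cells held up to 357 RPM. Ndrg2, a cytosolic protein abundant in astrocytes, differed by 3.17, with medians of 23.9 and 0.289 RPM. Dbi, the acyl-CoA binding protein that is rich in glia, was found in every cell of both groups, from 19.4 to 6175 RPM in marker-positive and from 3.20 to 1689 RPM in marker-negative cells, and differed by 2.18.

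Hes1, a Notch target that keeps progenitors undifferentiated, was the single astrocyte gene called lower, by 1.32 on the log2 scale. Its medians were 4.09 RPM in marker-positive and 18.4 RPM in marker-negative cells. Nfia, a factor of glial fate that many cortical neurons also transcribe, was at 10 RPM in 12 cells of each group and differed by 0.14.

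**Figure D2:**
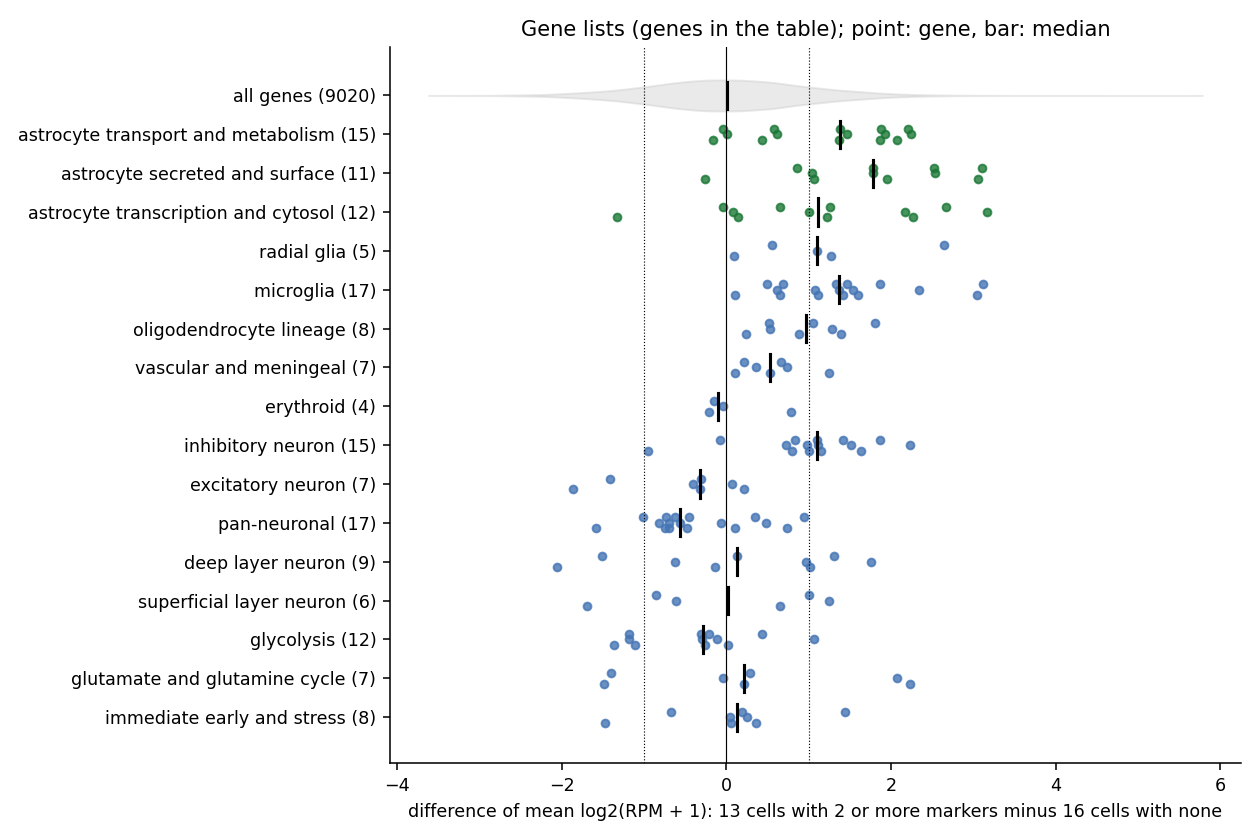
Difference of mean log2(RPM + 1), 13 marker-positive minus 16 marker-negative cells, for all 9020 genes (grey shape) and for the genes of 16 lists; each point is a gene, each bar a median, and the dotted lines mark 2-fold. The medians of the 3 astrocyte lists (1.38, 1.78 and 1.11), the microglia list (1.37) and the inhibitory list (1.10) stand above that of all genes (0.00), and the pan-neuronal list (-0.56) below it.

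The number of other astrocyte genes in a cell increased with the number of markers. With no marker the cells had 7 to 19 of the 38 genes at 10 RPM, median 12.5, and with 1 marker 9 to 23, median 14.5. Cells with a pair of markers had a median of 17 and those with 3 a median of 20, whereas the 2 cells with all 5 had 13 and 35. Over the 49 cells the Pearson correlation between the 2 numbers was 0.59 and Spearman's rho 0.51, given as a description because both numbers come from the same library. For 15 of the 38 genes the floor of the table also favours the marker-positive cells.

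On the astrocyte list the single-marker cells lay nearer to the marker-negative ones. Against marker-negative cells, 8 of the 38 astrocyte genes were higher and 2 lower in single-marker cells, with a median of 0.47, where 9.66% of all genes were higher and 11.5% lower. Against single-marker cells, 22 of the 38 were higher and 0 lower in marker-positive cells, with a median of 1.20, where 14% of all genes were higher and 11.8% lower. Fabp7 followed this pattern, with a difference between single-marker and marker-negative cells of -0.48. Glul and Atp1b2 did not, since they were already 1.55 and 1.80 higher in the single-marker cells. The 2 comparisons share the single-marker cells. In the comparison with marker-positive cells the floor of the table favours the latter, since 15 of the 38 genes meet it only with them.

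**Figure D3:**
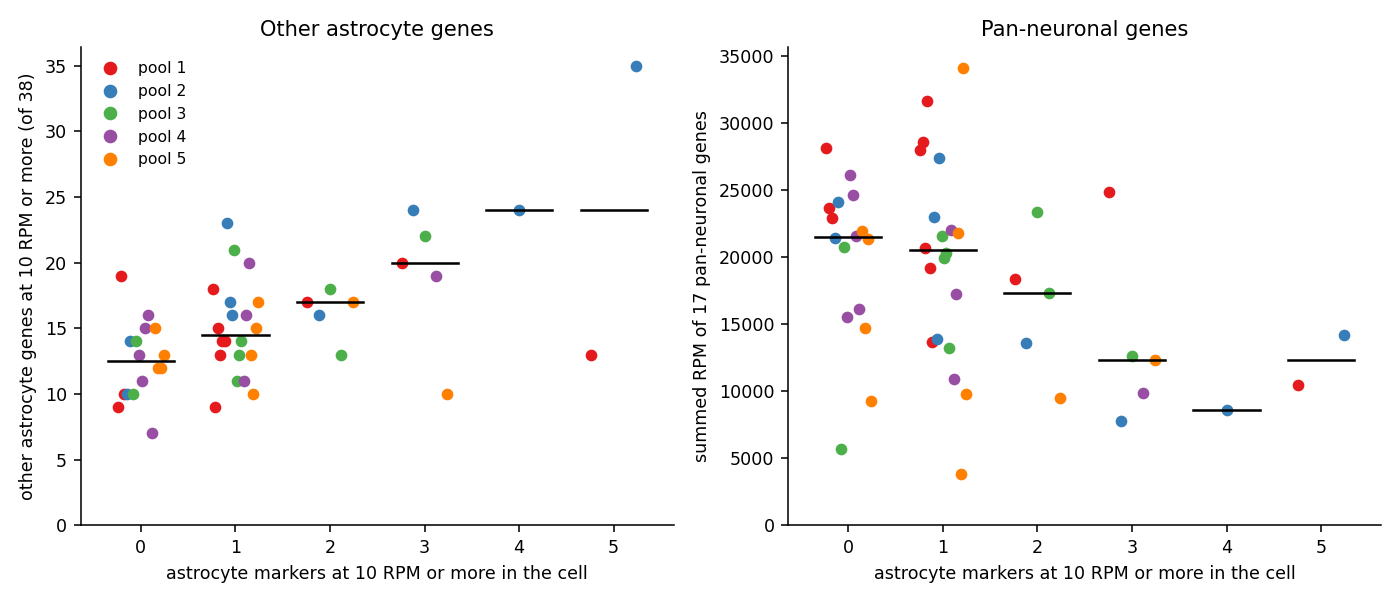
Left, the number of 38 other astrocyte genes at 10 RPM or more, and right, the summed RPM of 17 pan-neuronal genes, against the number of markers in each of 49 cells. Points are cells coloured by library pool and lines are medians, from 12.5 genes with no marker to 20 with 3.

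The size of the astrocyte difference depended on the library pool. Pools 1, 2, 3 and 5 held at least 2 cells of each group, and pool 4 held 1 marker-positive cell and gave no value. In pool 2, 31 of the 38 genes were higher and 2 lower, with a median of 2.39, beside 31.6% and 31.5% of all genes and a median of 0.02. In pool 1 there were 15 higher and 7 lower, with a median of 0.52, beside 23.2% and 35% of all genes and a median of -0.10.

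In pool 3 the astrocyte list did not stand above the rest of the table. There 16 genes were higher and 6 lower with a median of 0.56, while 51.9% of all genes were higher, 14% were lower and their median was 1.11. Of the 2 marker-negative cells of that pool, IL1 had 68.8% of its reads on hemoglobin genes and 4107 genes detected. In pool 5 the counts were 11 and 5 with a median of 0.00, beside 20.4% and 47.2% of all genes and a median of -0.81. That 0.00 is the value of genes without any difference there, among them Kcnj10, Slc4a4, Aldh1l1, Acsbg1, Gpr37l1, Htra1, Bcan, Id4 and Ndrg2. An exact 0 is what a gene without reads in any of these cells gives. Pool 5 therefore cannot show whether these genes differ, and the place of its astrocyte median above that of all genes is not read as a shift.

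Without pool 2 the list gave 16 higher and 3 lower genes with a median of 0.83, beside 16.5% of all genes higher. Leaving out the deep cell IL3 of pool 2 alone gave 20 higher, beside 12.5% of all genes. The mean of the 4 within-pool differences also gave 20, with a median of 1.05, beside 17.2% of all genes. Within-pool groups hold 2 to 4 cells, so each such value rests on very few cells.

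**Figure D4:**
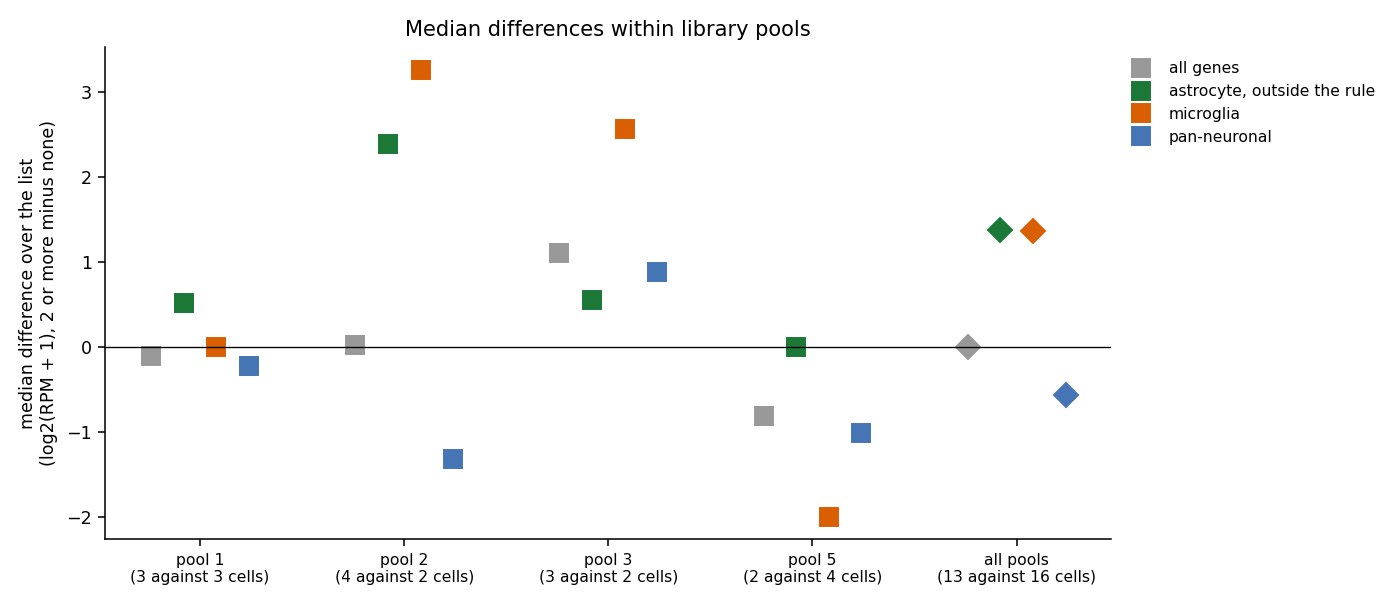
Median difference of log2(RPM + 1), marker-positive minus marker-negative cells, within each of 4 library pools (squares) and over all cells (diamonds), for all genes and 3 lists. The astrocyte median lies above that of all genes in pools 1, 2 and 5 and below it in pool 3 (0.56 against 1.11). In pool 5 it is 0.00, the value that genes without reads there take, so its place above all genes is not read as a shift. The microglia median runs from 3.27 in pool 2 to -2.0 in pool 5.

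Genes of radial glia, from which astrocytes arise, were partly higher. Of 5 in the table, 3 were called higher and 0 lower, with a median of 1.11. Fabp7, the brain lipid-binding protein of radial glia and young astrocytes, ran from 6.99 through 864 to 5225 RPM in marker-positive cells and from 0.250 through 157 to 4646 RPM in marker-negative cells, a difference of 2.65. Sox2, a progenitor transcription factor, differed by 1.27 and Vim, the filament protein vimentin, by 1.11. Ptn, the growth factor pleiotrophin, was high in both groups, with medians of 989 and 1438 RPM.

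Markers of other cell types also moved with the astrocyte markers. Of 17 microglial genes in the table, 12 were called higher and 0 lower, with a median of 1.37, which is close to the astrocyte median. The floor of the table is met by 3 of the 17 only with the marker-positive cells included. Of the other 14, 9 were higher and 0 lower with a median of 1.42. The same floor left 23 astrocyte genes with a median of 1.0, and 12.7% of all genes left were higher. Their summed level was 12.9 to 29576 RPM in marker-positive cells and 0 to 4803 RPM in marker-negative cells, with medians of 385 and 92.5. At least 2 microglial genes were at 10 RPM in 10 of 13 marker-positive, 10 of 20 single-marker and 7 of 16 marker-negative cells. Within pools 1, 2, 3 and 5 the microglial median was 0.00, 3.27, 2.57 and -2.0, so its direction turned in pool 5. Medians of all genes in these pools were -0.10, 0.02, 1.11 and -0.81.

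The chemokine genes Ccl4 and Ccl3 led this list, with differences of 3.12 and 3.05. Ccl4 reached 21866 RPM in IL5 of pool 2 and 13040 RPM in IL8 of pool 3. C1qc, a complement subunit made by microglia, differed by 2.34, while P2ry12, the purinergic receptor that defines resting microglia, differed by 0.11. P2ry12 and Tmem119 each stood at 0 RPM in the median cell of the marker-positive group, and Cx3cr1 is not in the table.

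Microglial genes were concentrated in 3 of the 13 cells, with 17 of 17 at 10 RPM in IL8 of pool 3, 16 in IL3 of pool 2 and 9 in IL5 of pool 2. The other marker-positive cells held 0 to 6. Without these 3 cells and 3 marker-negative cells with 7 or more microglial genes, 20 of the 38 astrocyte genes were still higher and 2 lower, with a median of 1.01 beside 15.6% of all genes higher. Ndrg2 then differed by 1.63, Apoe by 2.56 and Ptprz1 by 3.38. Cell IL9 of pool 1, with all 5 astrocyte markers, had 0 microglial genes at 10 RPM and a summed microglial level of 12.9 RPM.

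Of 8 oligodendrocyte lineage genes 4 were higher and 0 lower (median 0.97), beside 14.9% higher over all genes. Olig1, a lineage transcription factor, led with a difference of 1.80. Cldn11, also called (1.06), peaked at 77.5 RPM in single-marker and 82.4 RPM in marker-negative cells. It meets the floor of the table only through the marker-positive cells. Of 7 vascular and meningeal genes 1 (14.3%) was higher (median 0.52), namely Igfbp7 at 1.24. Igfbp7 peaked at 7.87 RPM in marker-negative and 223 RPM in single-marker cells. The floor was not counted over either list. Summed levels of the 2 lists ran from 0 to 3905 RPM and from 1.67 to 2608 RPM in marker-positive cells, and from 3.01 to 673 RPM and from 0 to 2385 RPM in marker-negative cells. Ttr and Enpp2, which are abundant in choroid plexus, differed by 1.61 and 2.47. None of 4 hemoglobin genes was called (median -0.10), and the hemoglobin share ran from 0.00824% to 21.6% in marker-positive cells.

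The astrocyte RNA was found in cells that also held RNA of most pan-neuronal genes. All 13 marker-positive cells had 13 to 17 of 17 pan-neuronal genes at 10 RPM, as did all cells of the other groups, with a median of 16 in each group. Snap25, a synaptic vesicle fusion protein, Tubb3, the neuronal tubulin, and Gap43, a protein of growing axons, were at 10 RPM in 13 of 13 cells. In IL5 of pool 2, however, the summed microglial level exceeded the pan-neuronal one (29576 against 8569 RPM). The same held in IL8 of pool 3 (24156 against 12649 RPM) and in the single-marker cell IL5 of pool 5 (17260 against 3797 RPM). In the other marker-positive cells the pan-neuronal sum was the larger.

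The median summed level of the 17 genes was lower. It ran from 7745 through 12649 to 24857 RPM in marker-positive cells, from 3797 through 20487 to 34096 RPM in single-marker cells and from 5713 through 21475 to 28082 RPM in marker-negative cells. The ranges overlapped. By gene, 2 of the 17 (11.8%) were called lower, a share no larger than the 14.2% of all genes, and 0 were higher, with a median of -0.56 beside 0.00. They were Elavl4, a neuronal RNA-binding protein, with a difference of -1.58 and medians of 24.5 and 207 RPM, and Stmn3, a regulator of microtubules, with -1.02. The list's median was -0.22, -1.31, 0.89 and -1.02 within pools 1, 2, 3 and 5, beside -0.10, 0.02, 1.11 and -0.81 for all genes.

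The excitatory list of 7 genes had a median of -0.31, with 2 called lower, namely Neurod6, a transcription factor of cortical projection neurons, at -1.86 and Slc17a6, the vesicular glutamate transporter VGLUT2, at -1.41. The main cortical transporter gene Slc17a7 differed by 0.22. The direction of this median was not stable, since it was -1.82, -2.61 and -2.19 within pools 1, 2 and 5 and 2.60 within pool 3. The median of all genes in pool 3 was 1.11, and its marker-negative cell IL1 had 68.8% of its reads on hemoglobin genes.

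Of 15 inhibitory neuron genes, 8 were higher and 0 lower, with a median of 1.10, beside 14.9% and 14.2% of all genes. Nxph1, a secreted protein of interneurons, differed by 2.23, Gad2, a glutamate decarboxylase, by 1.86 and Gad1, the other decarboxylase, by 1.51, while the peptide gene Sst differed by -0.95. At least 2 inhibitory genes stood at 10 RPM in 10 of 13 marker-positive, 15 of 20 single-marker and 8 of 16 marker-negative cells. Within pools 1, 2, 3 and 5 the list's median was 2.70, 2.48, 0.55 and 0.00. Medians of all genes there were -0.10, 0.02, 1.11 and -0.81, so in pool 3 the list lay below the rest of the table. Cell IL3 of pool 2 alone held 13 of the 15.

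Layer identity showed no common direction. Of 9 deep-layer genes, 3 were higher, with Crym, a thyroid hormone binding protein, at 1.75, and 2 lower, with Fezf2, the factor of subcortical projection neurons, at -2.06 and Tbr1, a layer 6 factor, at -1.51. Of 6 superficial-layer genes, 2 were higher and 1 lower, the latter being Rorb, a factor of layer 4, at -1.70 with medians of 7.22 and 170 RPM.

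Genes around the functions of the 5 markers were mixed. In the glutamate and glutamine cycle, Glul (2.07) and Got1, an aspartate aminotransferase (2.23), were higher, while Slc38a1, a glutamine transporter of neurons (-1.48), was lower. Of 12 glycolytic genes other than Aldoc, 1 was higher and 4 lower, with a median of -0.28. Pkm, pyruvate kinase, differed by 1.06, and Pfkm, Ldha, Hk1 and Pfkp by -1.36, -1.19, -1.19 and -1.11. Aldoa, the general form of aldolase, differed by -0.21.

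Of 8 listed genes that relate to Mfge8 the table holds 2, and both were called higher. Itgav, an integrin subunit that binds it, differed by 1.33 and Gas6, another bridging protein of phagocytosis, by 1.24. In single-marker cells they were 0.98 and 1.23 above the marker-negative cells, and 2 of those 20 cells held Mfge8 at 10 RPM. Gjd2, the connexin of neurons, was near 0 in most cells of both groups and differed by 0.69. Among 8 immediate early and stress genes, Atf3 was higher by 1.44 and Dusp1 differed by -1.47, with a list median of 0.12.

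Of the 9020 genes, 368 were at least 2-fold higher and 395 at least 2-fold lower in the marker-positive cells under every one of 7 checks. The checks left out each pool in turn, averaged within pools or thinned the reads to 1 depth. Chosen by the size of the difference, the 15 highest were Cnn3 (4.39), Igfbp4 (3.53), Selenop (3.44), Vangl2 (3.43), Hpcal1 (3.20), Ndrg2 (3.17), Pafah1b3 (3.17), Nfx1 (3.14), Anks1b (3.12), Ccl4 (3.12), Apoe (3.10), Kcnd2 (3.09), Qk (3.09), Gpsm1 (3.08) and Mmp15 (3.08). Ndrg2 and Apoe are on the astrocyte list and Ccl4 is on the microglia list. The checks leave in the 1075 genes that meet the floor of the table only with the marker-positive cells. Without those genes, the main calls fell from 1342 to 1007 higher and from 1282 to 1268 lower. Nor do the checks ask for the same sign within each pool. In pool 5, Ccl4 differed by -2.86, Igfbp4 by -0.73, Apoe by -0.23 and Hpcal1 by -0.07, and in pool 1 Kcnd2 differed by -1.29. Ndrg2 differed by 4.87 in pool 2 and by 0 in pool 5, the value of a gene without reads there. The other genes of the 15 were above 0 in each pool with a value.

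Cnn3, the actin-binding protein calponin 3 (GRCm38 chr3:121426497-121458207, plus strand), had the largest difference outside the rule. Its level ran from 0.238 through 98.1 to 1233 RPM in marker-positive cells and from 0 through 0.674 to 55.2 RPM in marker-negative cells. It was at 10 RPM in 9 of 13 marker-positive, 5 of 20 single-marker and 1 of 16 marker-negative cells, and its mean log2(RPM + 1) was 5.68 ± 3.34 (SD, n = 13 cells) against 1.29 ± 1.62 (SD, n = 16 cells). The difference was above 0 in each pool, at 1.39, 4.67, 5.57 and 4.53 in pools 1, 2, 3 and 5.

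Cnn3 did not simply track the markers, since the 2 cells with the most Aqp4 differed: IL9 of pool 1 had 1.62 RPM of Cnn3 and IL6 of pool 5 had 781 RPM. Selenop, a secreted selenium carrier, was at 10 RPM in 7 of 13 against 1 of 16 cells, with 1148 RPM in IL3 of pool 4. Vangl2, a planar polarity protein of the cell membrane, had medians of 28.5 and 0 RPM. Hpcal1, a calcium sensor of the visinin family, and Mmp15, a membrane-bound matrix protease, reached 10 RPM in 6 and 7 marker-positive cells and in no marker-negative cell. Mmp15 and Vangl2 meet the floor of the table only with the marker-positive cells included.

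Other genes in this group are known mainly from neurons. Kcnd2, the A-type potassium channel Kv4.2, had medians of 83.7 and 3.09 RPM, and Anks1b, a scaffold protein of the postsynaptic density, 147 and 6.56 RPM. Qk, an RNA-binding protein of glia, was at 10 RPM in 8 of 13 against 3 of 16 cells. Kcnd2, Anks1b and Qk were each lower in single-marker than in marker-positive cells, by 2.34, 2.17 and 1.91. Igfbp4, an insulin-like growth factor binding protein, differed less between these groups, by 1.01.

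The 10 lowest were Camk1d (-3.62), Rnf145 (-3.46), C2cd2l (-3.40), Foxj3 (-3.31), Acyp1 (-3.26), Cnih3 (-3.25), Sdccag8 (-3.24), Med11 (-3.22), Chac2 (-3.17) and Grk2 (-3.12). None is on a list of neuronal or glial markers. Camk1d, a calcium/calmodulin-dependent kinase, was at 10 RPM in 3 of 13 marker-positive and 13 of 16 marker-negative cells, with medians of 1.58 and 90.7 RPM. Its mean log2(RPM + 1) was 2.16 ± 2.40 (SD, n = 13 cells) against 5.78 ± 3.0 (SD, n = 16 cells). It differed by -3.69, -3.65, -5.34 and -5.41 in pools 1, 2, 3 and 5. Rnf145 was higher by 0.76 in pool 1, C2cd2l by 0.20 in pool 2 and Cnih3 by 0.66 in pool 3. The rest of the 10 were lower in each of these pools.

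Foxj3, a forkhead transcription factor, was at 10 RPM in 1 of 13 against 12 of 16 cells. Cnih3, an auxiliary subunit of AMPA receptors, had medians of 1.58 and 75.0 RPM. Single-marker cells lay between the other groups for all 10 genes. Sdccag8, which encodes a centrosomal protein, Gpsm1 and Kcnd2 each overlap a gene that is also in the table, and how the counting divided reads between such genes is not given in the sources used here.

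**Figure D5:**
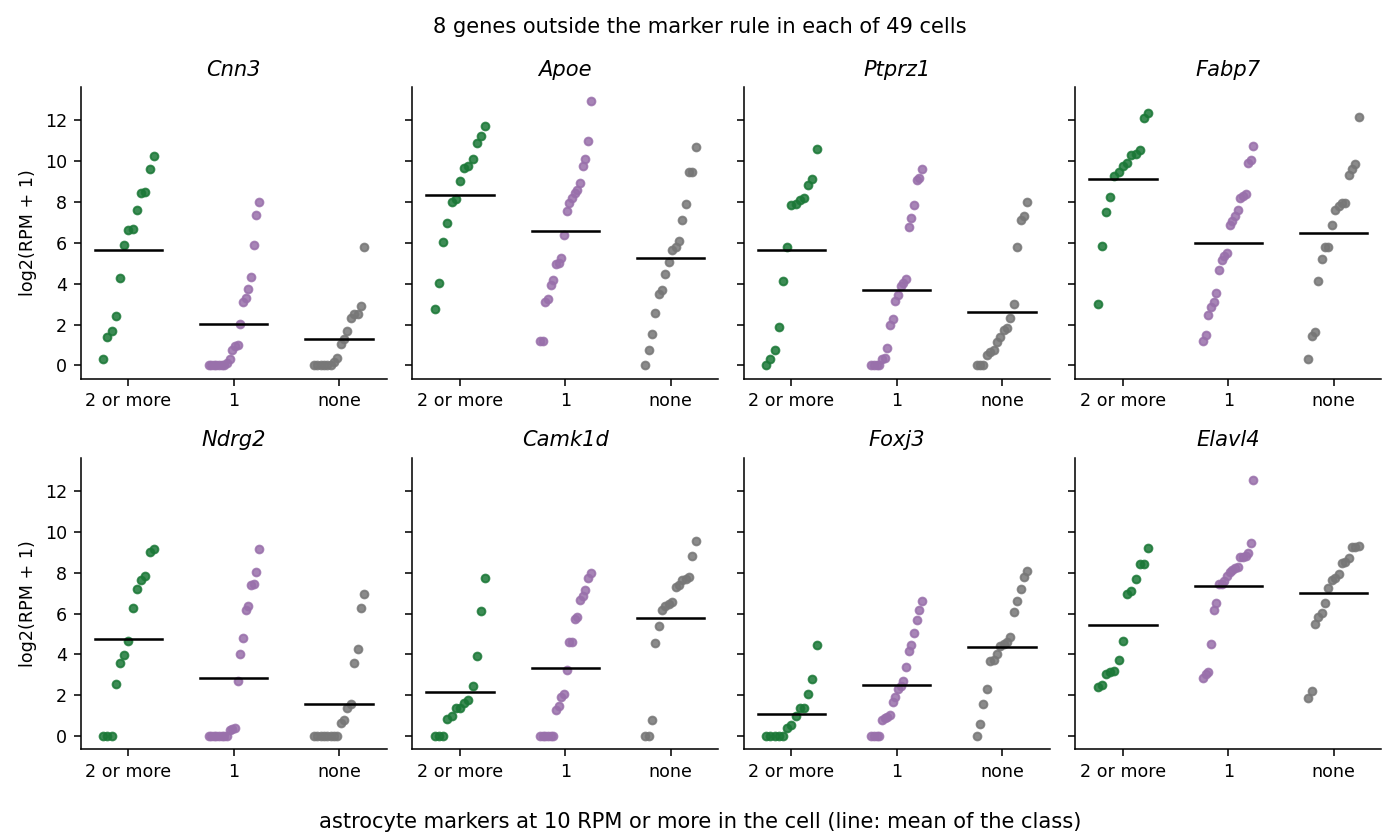
Level of 8 genes outside the marker rule, as log2(RPM + 1), in the 13 marker-positive, 20 single-marker and 16 marker-negative cells; points are cells and lines are means. Cnn3, Apoe, Ptprz1, Fabp7 and Ndrg2 have higher means in marker-positive cells (differences of 4.39, 3.10, 3.06, 2.65 and 3.17) and Camk1d, Foxj3 and Elavl4 lower ones (-3.62, -3.31 and -1.58), with overlapping ranges for each gene.

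The pairing of the markers, on which the choice of cells rests, is given as a description. On log2(RPM + 1) over the 49 cells, Pearson correlations of the 10 pairs ran from 0.17 (Aqp4 and Slc1a3) to 0.50 (Aqp4 and Aldoc). Aldoc and Mfge8 were found together at 10 RPM in 8 cells, Aqp4 and Aldoc in 6, and Aqp4 and Mfge8 in 2. All 6 cells with Aqp4 also had Aldoc at 10 RPM, whereas 13 of 25 cells with Aldoc had no other marker.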

How the data were processed

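The authors aligned reads to the mouse genome (mm10) with STAR, counted them with HTSeq and deposited 1 table of RPM for 9020 genes in 49 cells. Versions and annotation are not given in the sources used here. Libraries had been made with the SMART-Seq v4 3' DE and Nextera XT kits, without molecular identifiers, so depth counts reads and not molecules. Every gene in the table has at least 100 RPM in 2 cells. Values above 0 were multiples of a fixed step in each cell. Taking the step as 1 read made 100% of them whole to 0.01, and gave totals of 209850 to 35342325 reads. A count test was not run, since it would treat cells as replicates.

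Groups followed the marker rule at 10 RPM. Differences are of mean log2(RPM + 1) between cells, with 2-fold as the limit. Named genes are the 5 markers, the genes of the lists, and the 15 highest and 10 lowest genes among those 2-fold changed under every pool left out, the within-pool mean and thinning to 358412 reads (which dropped 2 marker-negative cells). The cells, lists and rule were chosen with earlier results of these data known. Alternatives covered the rule, pseudocount, filter, depth, pool, scaling and each cell left out. Scripts used Python 3.11.15, numpy 2.4.6, pandas 2.3.3 and scipy 1.17.1 and were tested on simulated data. Gene positions are from GENCODE M21, which holds 8835 of the 9020 symbols.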

Additional observations from a re-analysis of the deposited data

How the results depend on the processing

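The count of marker-positive cells was 8 with at least 3 markers required. Genes 2-fold higher numbered 2094 with a pseudocount of 0.1 and 383 with 10, and genes 2-fold lower 456 with 10. Leaving out pools or single cells in turn gave 1146 to 2167 genes lower, the last without pool 3, and 16 to 27 of the 38 astrocyte genes higher, the first without pool 2. That count was 14 with a pseudocount of 10, 15 as a difference of medians, 12 of 23 when genes had to have 100 RPM in 2 cells outside the group, 18 of 28 with the filter on low values and 20 to 28 of 38 otherwise. The astrocyte median ran from 0.76 to 2.05 over all 54 alternatives. The median of all genes moved from 0.00 to -0.22 with Aldoc left out of the rule, to -0.17 with thinned reads and to -0.23 without pool 3. No paired analysis was possible because every cell carries the same labels apart from its pool and number. The excitatory median ran from -1.34 to 0.43. Depth limits the zeros, since 1 read was worth up to 1.58 RPM in the marker-positive and 3.93 RPM in the marker-negative cells. Settings with cells rich in microglial genes or hemoglobin left out, with each cell left out, and with 100 RPM outside the group were added after seeing the data. The cause of these shifts was not tested.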
